A study of Homo sapiens with 9 samples.

Results

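S2-020 and S2-007 are sublines established from SUIT-2, a human pancreatic ductal adenocarcinoma (PDAC) cell line, and their transcriptomes were compared over all expressed genes. The comparison took the 3 S2-020 and the 3 S2-007 samples of the 9 in the series, and the 3 samples of a further subline, S2-028, are given only as levels beside them. Those levels are printed for some genes only, so a fall or rise below need not be particular to S2-020. The study followed maspin, a serine protease inhibitor of the serpin family that is encoded by SERPINB5, and its location in PDAC cells. In S2-007 the protein lies in both nucleus and cytoplasm (panMaspin), in S2-028 it lies in the cytoplasm (cytMaspin), and S2-020 has little of it. The lines compared here were grown alike, in DMEM with inactivated fetal bovine serum, and received no treatment, transgene or knockdown. Each group is therefore a single subline, and a difference between them is a difference between cell lines, in which maspin is 1 of many genes that differ. Of the 42717 genes in the count table, 26657 had enough reads to be tested, and the others are not described.

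Pancreatic duct cells are a simple epithelium. E-cadherin (CDH1) and the desmosomal cadherins tie neighbouring cells together, claudins and their scaffolds seal the space between them, keratins form the intermediate filaments, and factors such as GRHL2, OVOL and the splicing regulators ESRP1 and ESRP2 keep this state in place. In epithelial to mesenchymal transition (EMT), factors of the SNAI, ZEB and TWIST families lower junction genes by binding E-box letters in their promoters, while vimentin, N-cadherin and matrix genes go up. Carcinoma cells often hold only a part of this change.

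Counts were tested with edgeR's quasi-likelihood test, and a gene was called differentially expressed (a DEG) when its p, adjusted by Benjamini-Hochberg over all genes tested, was under 0.05 and it changed by about 1.5-fold or more. Fold changes are S2-020 over S2-007 throughout, so that a negative value means a lower level in S2-020. Levels are CPM, which are counts scaled to the normalized library size, and they compare a gene between samples but not one gene with another. In S2-020, 2552 genes were upregulated, which is 9.57% of the genes tested, and 3217 were downregulated, which is 12.1%. These shares are the background for each list of genes below. Protein-coding genes alone had higher shares, 12.8% upregulated and 14.4% downregulated, and the lists consist mainly of such genes. At 8-fold or more (log2 fold change of 3), 235 genes were upregulated and 445 downregulated. For 5662 of the 5769 DEGs (98.1%), the samples of one line all lay above those of the other. The DEGs were called on these same samples, so this share adds no separate support for them. Its value over all genes tested is not given here. The plot of fold change against level shows that the widest differences were spread over weakly and strongly expressed genes.

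**Figure D1:**
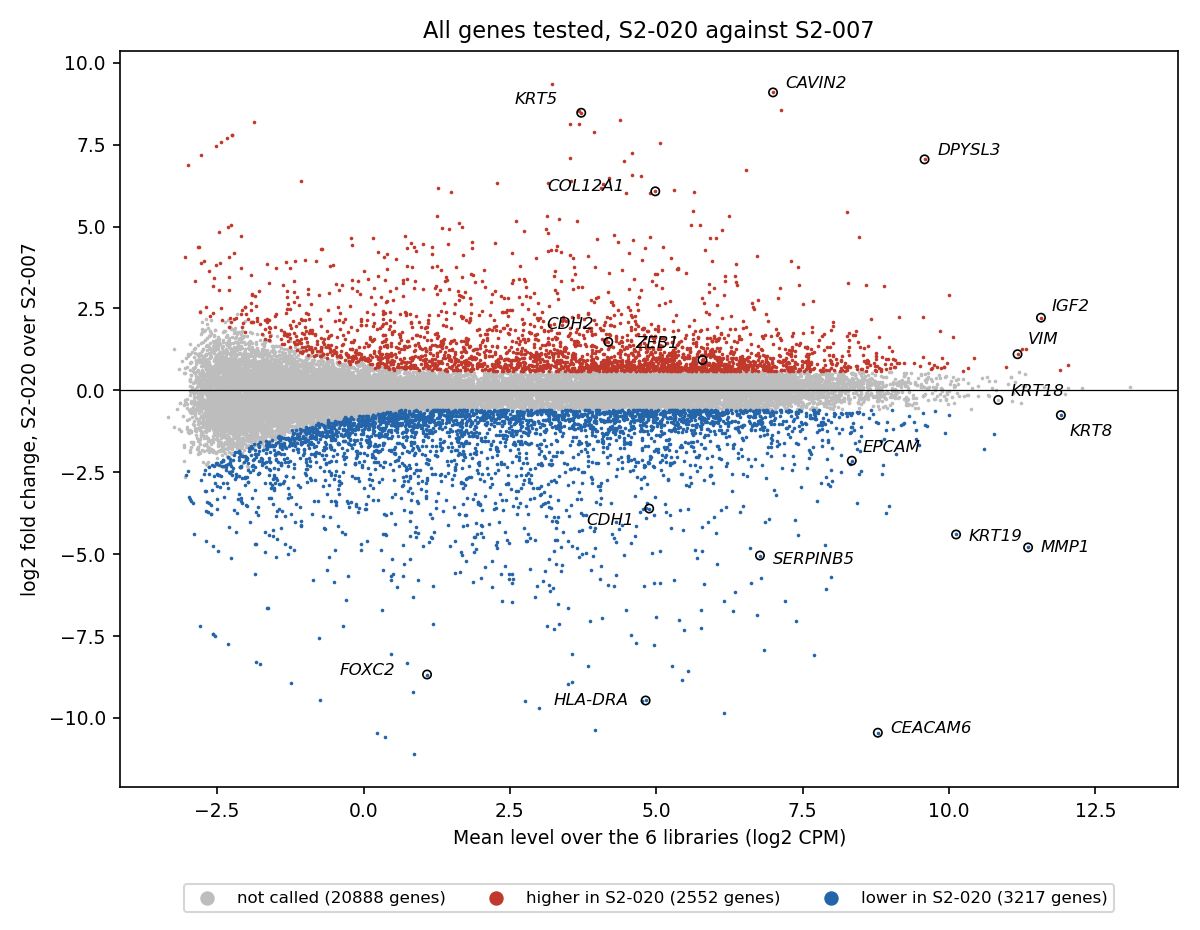
Each point is 1 of the 26657 genes tested, with the mean level over the 6 libraries (log2 CPM) on the horizontal axis and the log2 fold change of S2-020 over S2-007 on the vertical axis. Red points are the 2552 upregulated genes, blue points the 3217 downregulated genes, grey points the genes not called, and circled genes are named in the text. CEACAM6 and HLA-DRA lie lowest among the circled genes, CAVIN2 and KRT5 highest, and KRT18 lies near 0.

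Total counts ranged from 71040887 to 75136834 in S2-007 and from 73775302 to 86253923 in S2-020, and the 10 most counted genes took 4.31% to 4.75% of them. Across genes, which do not count as independent replicates, Pearson's r of log2 CPM was 0.979 to 0.981 within a line and 0.943 to 0.947 between the lines. No library stood apart from its line, and no batch is named. The labels do not say that samples of a line came from separate cultures, so p-values measure only the spread between these samples, which may be technical. In bulk RNA, fewer cells of a type and less RNA per cell cannot be told apart.

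Maspin RNA was far lower in S2-020. SERPINB5 (NCBI gene 5268, chr18:63476958-63505085 of GRCh38.p14) stood at 203, 221 and 211 CPM in the S2-007 samples and at 6.903, 6.68 and 6.08 CPM in the S2-020 samples. The lines did not overlap (log2 fold change -5.04, standard error 0.06996, adjusted p = 1.02e-20, quasi-likelihood test of edgeR). S2-028 lay between them at 26.3, 26.04 and 30.9 CPM.

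The genes that define an epithelial cell were all still detected in S2-020, but they did not move together. CDH1 (NCBI gene 999, chr16:68737292-68835537 of GRCh38.p14), which encodes E-cadherin, was at 53.97, 56.8 and 51.96 CPM in S2-007 and at 4.75, 4.65 and 4.24 CPM in S2-020 (log2 fold change -3.61, standard error 0.08401, adjusted p = 1.42e-17, quasi-likelihood test of edgeR). EPCAM, an epithelial adhesion molecule, was at 515, 542 and 525 CPM in S2-007 and at 124, 119.8 and 121 CPM in S2-020 (log2 fold change -2.15, standard error 0.0504, adjusted p = 1.57e-17, quasi-likelihood test of edgeR). Both genes were separated between the lines, and S2-028 lay on the side of S2-007, with CDH1 at 104, 117 and 116 CPM and EPCAM at 429, 405 and 429.8 CPM. KRT19, a keratin of simple epithelium, fell from 2134, 2156 and 2077 CPM to 116, 102 and 90.2 CPM (log2 fold change -4.40, standard error 0.0743, adjusted p = 1.32e-19, quasi-likelihood test of edgeR). KRT8 was at 4751, 4647 and 5040 CPM in S2-007 and at 3248, 2536 and 2947 CPM in S2-020, a smaller but separated difference (log2 fold change -0.76, standard error 0.0614). Its partner KRT18 was not called (log2 fold change -0.29, standard error 0.0615, adjusted p = 6.20e-04, quasi-likelihood test of edgeR), with 2012, 1916 and 2118 CPM in S2-007 and 1889, 1503 and 1653 CPM in S2-020. Its samples did not overlap between the lines, and the fold was under the limit for a call. KRT8 and KRT18 share 19.00% and 29.4% of their transcript sequence, in words of 31 bases, with other genes, so that their counts depend on how shared reads were assigned.

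Most junction genes were downregulated. Of 32 genes of adherens and tight junctions, all of which were tested, 22 were downregulated (68.8%) and 3 upregulated (9.38%), and the median log2 fold change was -1.33 against -0.05 over all genes tested. Among the claudins, CLDN7 (-4.81), CLDN3 (-2.26) and CLDN4 (-1.79) fell in log2 fold change, while CLDN1 rose from 106, 95.9 and 114 CPM to 437, 408 and 412 CPM (log2 fold change 1.96, standard error 0.0604) and CLDN2 rose by less (0.93). Of the scaffold proteins beneath the junction, TJP3 fell (-4.24), but TJP1 (0.42) and the tight junction protein OCLN (0.10) were not called. CRB3, which sets the apical side of the cell, was at 6.12, 7.25 and 5.83 CPM in S2-007 and at 0.348, 0.505 and 0.279 CPM in S2-020 (log2 fold change -4.10, standard error 0.232, adjusted p = 1.39e-11, quasi-likelihood test of edgeR). NECTIN1, an adhesion protein of adherens junctions, fell from 141 ± 8.62 to 17.2 ± 0.299 CPM (mean ± SD, n = 3 samples each, log2 fold change -3.06). The polarity gene PARD6B was upregulated (0.69).

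Desmosomes, the spot junctions that anchor keratins, were affected in part. Of 15 genes, 6 were downregulated, 2 were upregulated and 7 were not called, with a median log2 fold change of -0.27. JUP, or plakoglobin, was at 168, 154 and 154 CPM in S2-007 and at 13.8, 12.4 and 10.96 CPM in S2-020 (log2 fold change -3.72, standard error 0.0789, adjusted p = 3.70e-18, quasi-likelihood test of edgeR). Of the 6 desmosomal cadherins, DSC2 (-2.76) and DSG2 (-1.21) also fell, and DSC1 (-0.10), DSC3 (-0.19), DSG1 (0.72) and DSG3 (-0.16) were not called, each under 1 mean CPM in both lines. The plakin DSP, at 141 and 168 mean CPM in S2-007 and S2-020, was not called (0.22), and the plakin PPL (1.11) and the membrane protein PERP (0.73) rose. A further plakin, EVPL, fell (-0.59).

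The keratins changed in both directions. Of 20 keratins listed, 16 were tested, 9 were downregulated and 3 upregulated, with a median log2 fold change of -1.19. KRT7, a duct keratin, fell from 238 ± 20.4 to 46.6 ± 6.36 CPM (mean ± SD, n = 3, log2 fold change -2.38), and KRT15 fell (-3.54). Of the 9 downregulated keratins, 5 were under 2 CPM in both lines, among them KRT13 and KRT17, and they were lost when genes of low level were left out. KRT5, a keratin of basal and squamous cells, went the other way. It was at 0.0267, 0 and 0.1901 CPM in S2-007, at 24.3, 25.3 and 30.6 CPM in S2-020 and at 0.161, 0 and 0.2295 CPM in S2-028 (log2 fold change 8.48, standard error 0.292, adjusted p = 5.69e-15, quasi-likelihood test of edgeR). The fold rests on few S2-007 counts, and without replicate 3 of S2-007 the log2 fold change was 10.78. Its usual basal partner KRT14 stayed at 0.1799 and 0.184 mean CPM in S2-007 and S2-020 and was not called (0.02). KRT80 rose too (1.22), whereas KRT86, which rose to 0.895 CPM (3.99), shares 43.3% of its sequence with other genes.

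Of 18 tested epithelial transcription factors and splicing regulators, 10 were downregulated and 2 upregulated, with a median log2 fold change of -0.91. ESRP1, which directs epithelial splicing, was at 38.95, 36.8 and 30.2 CPM in S2-007 and at 0.779, 0.349 and 0.669 CPM in S2-020 (log2 fold change -5.93, standard error 0.178, adjusted p = 6.85e-16, quasi-likelihood test of edgeR). Its relative ESRP2 was at 29.9, 29.04 and 34.2 CPM in S2-007 and at 20.96, 20.01 and 25.9 CPM in S2-020, below the fold required for a call (log2 fold change -0.51, standard error 0.0925). The repressors of ZEB1 OVOL1 (-3.64) and OVOL2 (-3.38), the grainyhead factors GRHL1 (-1.28), GRHL2 (-0.86) and GRHL3 (-2.44), and the ETS factor EHF (-1.74) fell. TFAP2C rose from 4.92 ± 0.207 to 64.4 ± 6.33 CPM (mean ± SD, n = 3, log2 fold change 3.68), and KLF4 rose as well (1.39). ELF3 (-0.39) and TFAP2A (-0.15) were not called.

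Many factors of the gut and pancreas lineage were lower. Of 24 tested, 12 were downregulated and 1 upregulated, and the median log2 fold change was -0.61. Under DESeq2, and without replicate 1 of S2-007 or replicate 3 of S2-020, 2 were upregulated. HNF4A, which drives liver, gut and pancreas programmes, was at 225, 224 and 239 CPM in S2-007 and at 30.3, 27.8 and 26.4 CPM in S2-020 (log2 fold change -3.05, standard error 0.06198, adjusted p = 1.85e-18, quasi-likelihood test of edgeR), and S2-028 was at 27.1, 26.1 and 21.8 CPM. ONECUT3 (-3.71), FOXA3 (-3.70), PDX1 (-1.38) and FOXA1 (-1.19) also fell. GATA6 (0.52) and SOX9 (0.52), which mark the classical and ductal states, were not called.

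Secreted and surface proteins of mucous epithelium were widely lower. Of 36 tested genes for mucins, trefoil factors and related proteins, 26 were downregulated (72.2%) and 0 upregulated by edgeR's quasi-likelihood test, and the median log2 fold change was -2.32. DESeq2 also called 0 higher, and 0 members were higher at an unadjusted p under 0.05. CEACAM6, a cell surface adhesion molecule of the carcinoembryonic antigen family, was at 947, 932 and 756 CPM in S2-007, at 1.02, 0.529 and 0.3903 CPM in S2-020 and at 619, 540.0 and 512 CPM in S2-028 (log2 fold change -10.45, standard error 0.169, adjusted p = 7.92e-20, quasi-likelihood test of edgeR). Its relatives CEACAM1 (-5.97) and CEACAM5 (-5.51) fell with it, and 14.8% of the sequence of CEACAM6 is shared with other genes. LCN2, an iron-binding lipocalin, went from 99.4, 93.4 and 84.5 CPM in S2-007 to 0.306, 0.361 and 0.0558 CPM in S2-020 (log2 fold change -8.57, standard error 0.179). LYZ, the gene of lysozyme, fell from 332 ± 37.8 to 2.57 ± 0.604 CPM (mean ± SD, n = 3, log2 fold change -7.03), and the protein disulfide isomerase AGR2 fell from 23.5 ± 2.35 to 0.0441 ± 0.0763 CPM (-8.91). In S2-028 the mean was 2.12 CPM for LYZ, near that of S2-020, and 21.2 CPM for AGR2, near that of S2-007. The fold of AGR2 rests on few S2-020 counts, all of them in replicate 2. Without that replicate S2-020 held 0 counts, and the log2 fold change of -13.77 was set by the small constant that the fit adds to counts. TFF2, a trefoil peptide, had 0 counts in all S2-020 samples against 3.57, 3.96 and 3.26 CPM in S2-007, which is at least 90.2-fold lower when S2-020 is set to 3 counts per library. WFDC2 likewise had 0 counts in S2-020 and was at least 63.9-fold lower. MUC1 (-2.23) and MUC13 (-2.70) fell, while MUC5AC, at 2.63 and 2.73 mean CPM in S2-007 and S2-020, was not called (0.03).

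Membrane-bound serine proteases of epithelium fell together with maspin. Of 17 tested proteases and inhibitors, 12 were downregulated (70.6%) and 0 upregulated by the same test and by DESeq2, with a median log2 fold change of -3.32, and 1 member was higher at an unadjusted p under 0.05. ST14, or matriptase, was at 492, 484 and 437 CPM in S2-007 and at 7.75, 6.93 and 7.08 CPM in S2-020 (log2 fold change -6.05, standard error 0.0762, adjusted p = 2.66e-21, quasi-likelihood test of edgeR). The genes of its inhibitor SPINT1 (-3.62) and of its partner protease PRSS8 (-5.55) fell, and so did TMPRSS4 (-4.76) and KLK10 (-4.77). SPINT2, a further inhibitor of these proteases, was not called and was at 237, 237 and 249 CPM in S2-007 and 357, 329.5 and 323 CPM in S2-020. Among the serpins, SERPINB1 fell by much less than SERPINB5 (-0.97) and SERPINB8 was not called (-0.06).

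**Figure D2:**
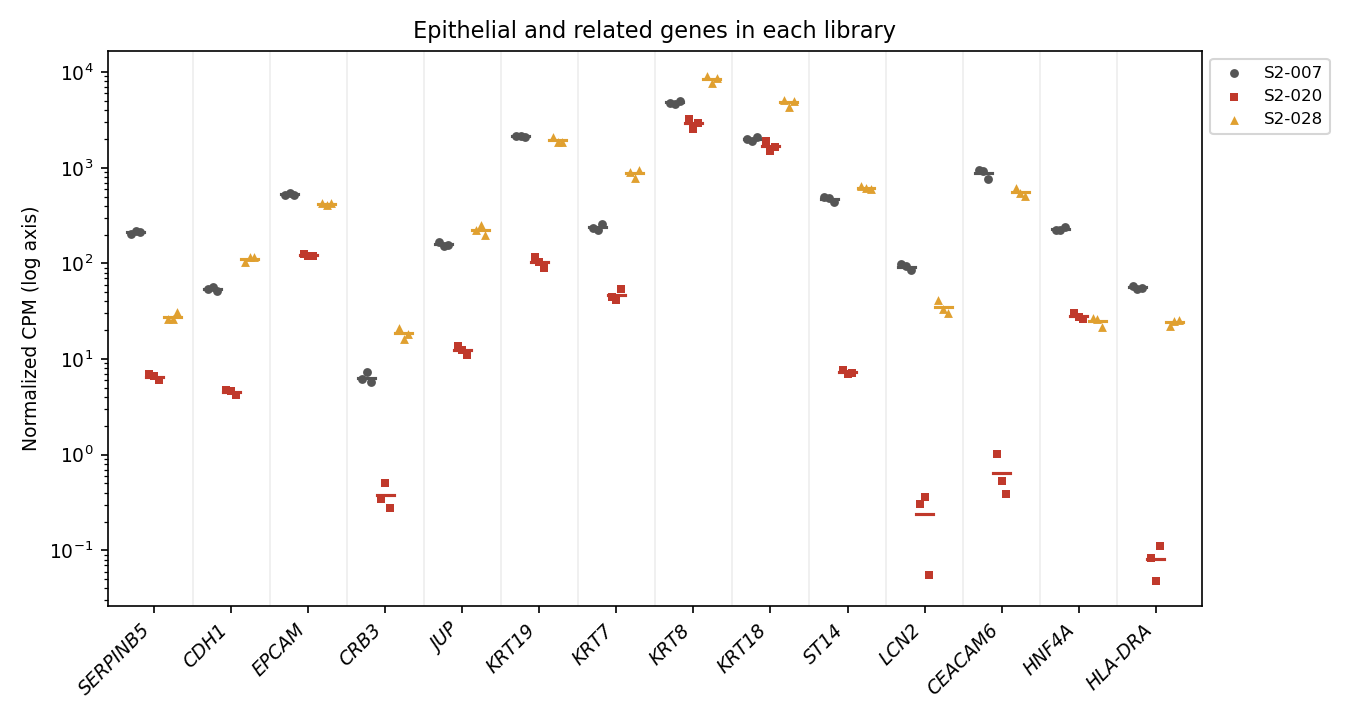
Normalized CPM of 14 genes in each library on a log axis, with the 3 samples of S2-007 as grey circles, of S2-020 as red squares and of S2-028 as yellow triangles, and short lines at the means. S2-020 lies below both other lines for CDH1, EPCAM, JUP, KRT19, ST14 and CEACAM6, whereas for KRT18 the highest S2-020 sample (1889 CPM) comes close to the lowest S2-007 sample (1916 CPM).

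Taking each gene once, the 7 epithelial lists above held 158 tested genes, of which 97 (61.4%) were downregulated, 11 (6.96%) upregulated and 50 not called, with a median log2 fold change of -1.17. Promoter sequence was read to see what these genes have in common. RefSeq promoters of GRCh38.p14, which span 250 bases before to 50 after the gene start, were matched for 18795 of the genes tested. The letters CAGGTG, the E-box that SNAI and ZEB factors recognize, were searched on both strands (CACCTG on the opposite one). Such a match was present in 20.0% of all these promoters, in 23.3% of those of downregulated genes and in 29.4% of the 289 promoters of genes with a log2 fold change of -3 or less. Of the 158 tested genes of the epithelial lists, 88 had a matched promoter, and CDH1 had none. Where a gene had several promoters, only the first listed was read. In the epithelial lists the match was present in 19 of 54 promoters (35.2%) of downregulated genes and in 14 of 34 (41.2%) of genes that were not. Among the promoters read, the letters were thus more common in epithelial lists than over all genes, but not more common in the members that fell. The sequence before the gene start is shown on the plus strand for 3 downregulated genes that hold such letters. They occur 5 times in CRB3, 2 times in LCN2 and once in SERPINB5. Capitals mark CAGGTG and CACCTG only, and other forms of E-box are not marked. The stretches shown span chr19:6464041-6464270 for CRB3, chr9:128149323-128149452 for LCN2 and chr18:63476858-63476957 for SERPINB5.
CRB3: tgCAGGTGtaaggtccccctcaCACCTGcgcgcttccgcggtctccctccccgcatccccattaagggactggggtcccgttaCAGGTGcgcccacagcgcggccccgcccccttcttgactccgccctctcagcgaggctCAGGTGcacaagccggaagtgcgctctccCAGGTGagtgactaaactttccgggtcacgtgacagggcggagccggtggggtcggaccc
LCN2: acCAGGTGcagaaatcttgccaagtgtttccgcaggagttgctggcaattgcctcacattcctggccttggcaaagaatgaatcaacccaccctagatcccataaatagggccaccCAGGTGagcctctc
SERPINB5: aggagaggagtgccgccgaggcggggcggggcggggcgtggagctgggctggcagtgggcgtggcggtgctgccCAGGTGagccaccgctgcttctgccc
In SERPINB5 the first base of the match lies at position -26 from the gene start, in LCN2 at -128 and -14, and in CRB3 between -228 and -60. A match describes letters and says nothing of binding. The AP-1 letters TGANTCA were found in 6.27% of all promoters and in 16.7% of those of downregulated epithelial genes, again close to the 14.7% of the members that did not fall. Promoters of genes with a log2 fold change of -3 or less had a median CpG observed over expected ratio of 0.380, against 0.749 over all genes tested and 0.602 for genes with a log2 fold change of 3 or more. The shown promoter of CRB3 holds 19 CpG in 230 bases, that of SERPINB5 9 in 100 and that of LCN2 1 in 130, so genes that fell had promoters of either kind.

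Genes of MHC class II, which presents peptides to helper T cells, were widely lower too. Of 17 tested, 11 were downregulated (64.7%) and 0 upregulated by edgeR's quasi-likelihood test and by DESeq2, with a median log2 fold change of -1.72, and 1 was higher at an unadjusted p under 0.05. Leaving out replicate 1 of S2-007 gave 1 upregulated member. HLA-DRA was at 58.5, 54.1 and 55.98 CPM in S2-007, at 0.0835, 0.0481 and 0.112 CPM in S2-020 and at 22.1, 25.3 and 25.8 CPM in S2-028 (log2 fold change -9.47, standard error 0.148, adjusted p = 5.31e-20, quasi-likelihood test of edgeR). CD74, the invariant chain, was at 246, 219 and 216 CPM in S2-007 and at 1.002, 1.02 and 0.808 CPM in S2-020 (log2 fold change -7.93, standard error 0.0968). Their coactivator CIITA fell by far less, from 32.9 ± 0.484 to 22.3 ± 0.587 CPM (mean ± SD, n = 3, log2 fold change -0.59), and the subunit genes of the RFX complex, RFX5 (0.18), RFXAP (0.41) and RFXANK (-0.33), were not called. HLA-DRB1 (-6.93) and HLA-DPA1 (-5.45) fell as well, with 9.48% and 0.0846% of their sequence shared with other genes.

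MHC class I went differently. Of 22 genes for class I molecules and antigen processing, 9 were upregulated and 2 downregulated, with a median log2 fold change of 0.38. The classical heavy chain genes HLA-B (-0.12) and HLA-C (-0.27) were not called, B2M fell from 620.0, 658 and 664 CPM to 356, 349.7 and 315 CPM (log2 fold change -0.96, standard error 0.0532), and HLA-F fell (-2.58). The peptidases ERAP1 (0.96) and ERAP2 (0.73) and the class I coactivator NLRC5 (1.14) rose. Of 50 interferon-stimulated genes, 22 were downregulated and 5 upregulated, with a median of -0.47. BST2, or tetherin (-2.75), MX2 (-3.60), OAS1 (-1.87) and IFI27 (-2.04) fell, while the regulators IRF1 (0.98) and STAT2 (0.88) rose. LGALS9 fell (-4.91) and shares 22.8% of its sequence with other genes. Of 29 tested chemokines and cytokines, 10 were downregulated and 2 upregulated, with a median of -0.85. TNFSF15, a cytokine of the TNF family, fell from 218 ± 6.86 to 13.7 ± 2.44 CPM (mean ± SD, n = 3, log2 fold change -4.02) and CXCL16 fell (-3.22), whereas IL32 rose (0.74).

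EMT factors were called in both directions. Of 16 tested, 3 were upregulated, 4 downregulated and 9 not called, with a median log2 fold change of 0.28. ZEB1 was at 38.5, 35.8 and 39.7 CPM in S2-007 and at 77.4, 73.04 and 71.02 CPM in S2-020, and S2-028 was lower than both, at 14.96, 12.4 and 15.4 CPM (log2 fold change 0.93, standard error 0.0618, adjusted p = 1.72e-10, quasi-likelihood test of edgeR). ZEB2, at 0.784 and 1.28 mean CPM in S2-007 and S2-020, was not called (0.67). FOXC1 rose from 28.6 ± 2.33 to 67.6 ± 2.49 CPM (mean ± SD, n = 3, log2 fold change 1.21). SNAI1 was called at a low level, with 0.294, 0.322 and 0.5703 CPM in S2-007 and 1.31, 0.938 and 0.7805 CPM in S2-020 (log2 fold change 1.32, standard error 0.377, adjusted p = 0.00767, quasi-likelihood test of edgeR), and the call was lost without replicate 1 of S2-020, where the log2 fold change was 1.09 and the adjusted p was 0.0592 by the same test. SNAI2, or SLUG, fell from 11.9, 15.6 and 16.1 CPM to 0.612, 0.505 and 0.7805 CPM (log2 fold change -4.56, standard error 0.179, adjusted p = 4.76e-14, quasi-likelihood test of edgeR). FOXC2 was at 4.24, 3.85 and 4.48 CPM in S2-007 and at 0, 0.02404 and 0 CPM in S2-020, at least 105-fold lower with S2-020 set to 3 counts per library. SNAI1 and SNAI2, and FOXC1 and FOXC2, thus moved in opposite directions within each pair. Like S2-020, S2-028 was low for SNAI2 and FOXC2, at 0.539 and 0.108 mean CPM. The chromatin protein HMGA2 fell a little (-0.67), and without replicate 3 of S2-007 its log2 fold change of -0.58 fell just short of the fold for a call.

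Cytoskeletal and surface genes of mesenchymal cells were called higher more often than lower. Of 28, 12 were upregulated (42.9%) and 3 downregulated (10.7%), with a median log2 fold change of 0.38. VIM, the gene of vimentin, was abundant in both lines, at 1366, 1435 and 1598 CPM in S2-007 and 3143, 3060 and 3453 CPM in S2-020 (log2 fold change 1.10, standard error 0.0519, adjusted p = 7.74e-13, quasi-likelihood test of edgeR), and S2-028 was at 393, 389 and 478 CPM. CDH2, or N-cadherin, was at 7.74, 9.36 and 11.6 CPM in S2-007 and at 30.4, 26.6 and 24.5 CPM in S2-020 (log2 fold change 1.48, standard error 0.118, adjusted p = 2.79e-09, quasi-likelihood test of edgeR). The change in VIM and CDH2 was separated but smaller than that of CDH1. Larger changes were found in genes of actin filaments. CALD1, which encodes the actin-binding caldesmon, went from 1.403, 1.07 and 0.842 CPM to 83.5, 79.4 and 73.9 CPM (log2 fold change 6.12, standard error 0.1198, adjusted p = 1.05e-18, quasi-likelihood test of edgeR). TPM1, a tropomyosin, rose from 98.9 ± 5.83 to 429 ± 29.1 CPM (mean ± SD, n = 3, log2 fold change 2.08), and the calcium-binding S100A4 (1.94), the receptor tyrosine kinase AXL (1.44) and the intermediate filament NES (2.12) rose. TAGLN fell (-1.07), with 36.9% of its sequence shared with other genes, and the myofibroblast gene ACTA2 (0.57) and the hyaluronan receptor CD44 (0.08) were not called.

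Matrix genes were called higher more often than lower. Of 45 tested, 18 were upregulated (40.0%) and 9 downregulated (20.0%), with a median log2 fold change of 0.28. COL12A1, a fibril-associated collagen, was at 1.04, 0.497 and 1.22 CPM in S2-007 and at 62.2, 68.4 and 59.96 CPM in S2-020 (log2 fold change 6.08, standard error 0.154, adjusted p = 5.25e-17, quasi-likelihood test of edgeR), and COL6A3 (6.17), COL4A5 (5.18) and COL18A1 (3.23) rose too. THBS2, a thrombospondin, was at 11.5, 12.6 and 10.7 CPM in S2-007 and 213, 221 and 173 CPM in S2-020 (log2 fold change 4.09, standard error 0.0912). S2-028 was high as well for THBS2 and COL18A1 (means of 242 and 523 CPM) but not for COL12A1 (0.711 CPM). The collagen cross-linking enzymes were divided. LOXL2 rose from 3.74 ± 1.17 to 151 ± 11.8 CPM (mean ± SD, n = 3, log2 fold change 5.31) and LOX from 1.39 ± 0.3002 to 38.01 ± 3.13 CPM (4.74), whereas LOXL4 fell from 898 ± 48.3 to 68.2 ± 15.2 CPM (-3.75). LOXL4 was lower still in S2-028, at 11.3 mean CPM. The downregulated members included COL17A1, the hemidesmosomal collagen (-3.52), and LAMA3, a chain of epithelial laminin (-1.98), while LAMB1 (1.05) and LAMC1 (1.33) rose. FN1, the gene of fibronectin, rose (2.09) but reached only 1.94, 0.998 and 0.822 CPM in S2-020, and SPARC, at 0.439 and 0.228 mean CPM in S2-007 and S2-020, was not called. The fibroblast collagen COL1A1 was called lower (-0.73) at 2.14 and 1.32 mean CPM, and its log2 fold change lay between -0.87 and -0.33 when single samples were left out, with the call lost without replicate 1 of S2-007 and without any 1 replicate of S2-020. It was also lost with DESeq2, with all 9 samples in the fit and with a replicate block (adjusted p = 0.0557, 0.0623 and 0.0833, the last 2 by edgeR's quasi-likelihood test).

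Integrins, the receptors for matrix, changed in both directions. Of 20, 8 were downregulated and 4 upregulated, with a median log2 fold change of -0.46. ITGB6, the epithelial receptor subunit that activates latent TGF-beta, fell from 66.6, 73.6 and 57.3 CPM to 1.24, 1.23 and 0.934 CPM (log2 fold change -5.89, standard error 0.124, adjusted p = 3.56e-18, quasi-likelihood test of edgeR). ITGA2 (-2.56), ITGA6 (-1.67) and ITGB8 (-1.99) also fell. ITGA5, the alpha subunit of the fibronectin receptor, rose from 21.8, 24.1 and 21.4 CPM to 80.1, 77.99 and 82.5 CPM (log2 fold change 1.81, standard error 0.0662), and ITGA10 (4.59) and ITGAV (0.92) rose. The shared beta subunit ITGB1 was not called (-0.33), nor was ITGB4 (0.30), the partner of ITGA6. MMP1, a secreted collagenase, had one of the largest falls in CPM, at 4626, 4994 and 5499 CPM in S2-007 and 204, 187 and 165 CPM in S2-020 (log2 fold change -4.80, standard error 0.0724, adjusted p = 3.00e-20, quasi-likelihood test of edgeR), and it was at 6.59, 8.08 and 6.28 CPM in S2-028.

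**Figure D3:**
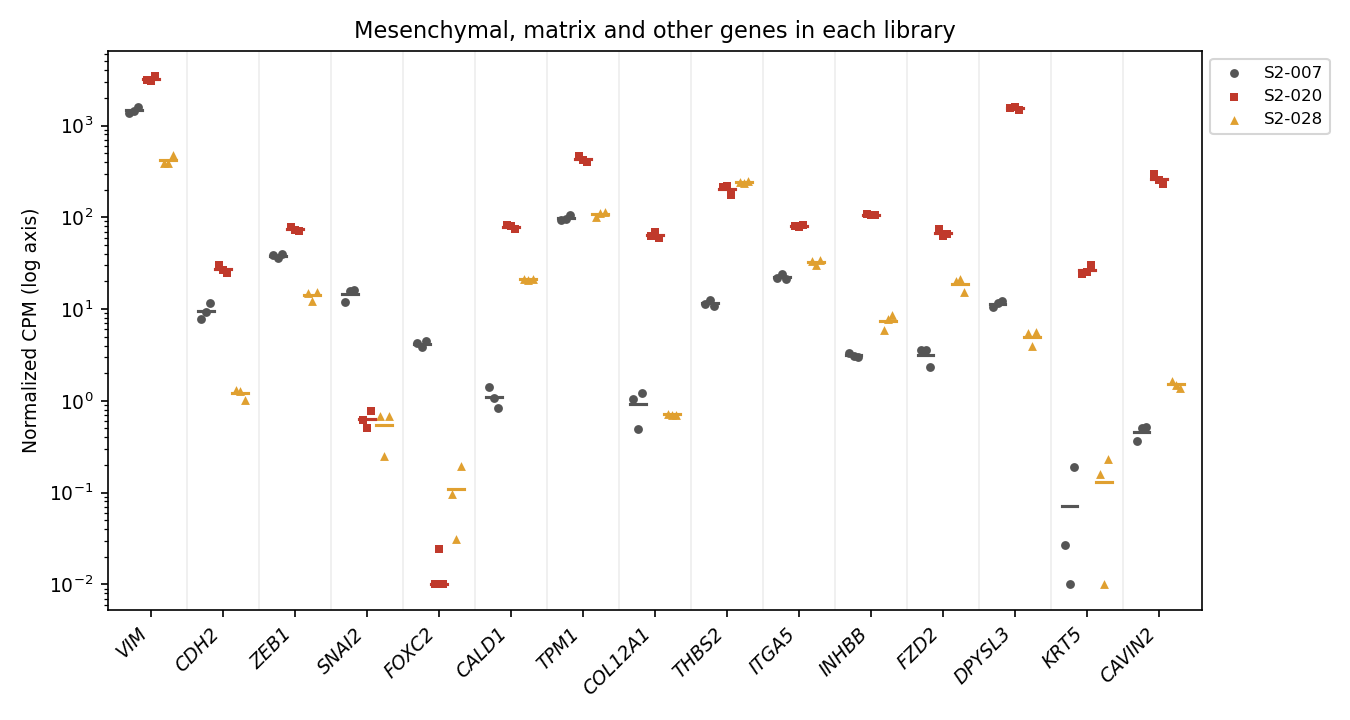
Normalized CPM of 15 genes in each library on a log axis, with symbols as in the plot of epithelial genes, short lines at the means and values under 0.01 CPM drawn at 0.01. S2-020 lies above S2-007 for VIM, CDH2, ZEB1 and CALD1 and below it for SNAI2 and FOXC2, and KRT5, CAVIN2 and COL12A1 are under 2 CPM in both other lines.

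In the TGF-beta and BMP pathway, ligands and receptors shifted in both directions. Of 50 genes, 15 were upregulated and 9 downregulated, with a median log2 fold change of 0.14. Among the ligands, INHBB, a subunit of activin, was at 3.29, 3.12 and 2.99 CPM in S2-007 and at 109, 106 and 106 CPM in S2-020 (log2 fold change 5.06, standard error 0.0747, adjusted p = 2.26e-20, quasi-likelihood test of edgeR). BMP6 (2.62) and TGFB2 (1.89) rose, BMP7 (-1.63), BMP2 (-3.13) and BMP4 (-0.85) fell, and TGFB1 was not called (0.14). Of the receptors, ACVR1C (2.20) and BMPR1B (1.91) rose, while TGFBR1 (-0.35) and TGFBR2 (-0.17) were not called. Of the mediators, SMAD3 fell (-0.96) and SMAD7, an inhibitor, rose (0.92). SMAD4 was at 0.641, 0.631 and 0.652 CPM in S2-007 and 0.738, 0.565 and 0.822 CPM in S2-020, a low level in both lines that was not called (0.11). The BMP target ID1 fell (-1.91), the pseudoreceptor BAMBI rose (2.19) and the BMP antagonist NOG rose (1.55).

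In the WNT pathway, 10 of 52 tested genes were upregulated and 11 downregulated, with a median log2 fold change of 0.06. Receptors of the Frizzled family, which bind WNT proteins, differed in direction. FZD2 rose from 3.55, 3.600 and 2.33 CPM to 74.4, 62.3 and 65.2 CPM (log2 fold change 4.38, standard error 0.125, adjusted p = 3.13e-16, quasi-likelihood test of edgeR) and FZD8 from 16.2 ± 2.38 to 153 ± 3.51 CPM (mean ± SD, n = 3, log2 fold change 3.21). FZD1 (-2.47) and FZD5 (-1.58) fell. Of the ligands, WNT5B rose (3.10) and WNT10A fell (-2.99). RNF43, which removes Frizzled receptors from the surface, fell (-4.52), but 68.2% of its sequence is shared with other genes, and the stem cell receptor LGR5 fell (-2.41) while AXIN2, a target of the canonical pathway, rose (0.94).

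In the ErbB family, 7 of 15 genes were downregulated and 3 upregulated, with a median log2 fold change of -0.44. ERBB3 was at 71.4, 67.9 and 54.2 CPM in S2-007 and at 6.68, 5.697 and 5.49 CPM in S2-020 (log2 fold change -3.47, standard error 0.109, adjusted p = 1.33e-15, quasi-likelihood test of edgeR), and S2-028 was at 109.6, 109.5 and 96.8 CPM. ERBB2, the gene of HER2, fell from 144, 138 and 128 CPM to 64.4, 58.7 and 62.3 CPM (log2 fold change -1.18, standard error 0.0619), and EGFR fell (-1.05). Among the ligands, TGFA (-2.43) and AREG (-1.26), which bind EGFR, fell, but BTC, which also binds EGFR, rose from 3.37 ± 0.0679 to 6.401 ± 0.215 CPM (mean ± SD, n = 3, log2 fold change 0.89). NRG1 (1.55) and NRG2 (1.73), which bind ERBB3 and ERBB4, rose, and EREG was not called (0.39).

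Of 70 tested axon guidance genes, 24 were downregulated (34.3%) and 8 upregulated (11.4%), with a median log2 fold change of -0.33. Of the netrin receptors, UNC5B fell, at 45.5 ± 3.98 CPM in S2-007 and 1.84 ± 0.127 CPM in S2-020 (mean ± SD, n = 3, log2 fold change -4.65), as did UNC5A (-3.71) and NEO1 (-1.87), while DCC was not called (-0.27). S2-028 was as low as S2-020 for UNC5B (1.65 mean CPM) but not for UNC5A (52.5 mean CPM). The netrin NTN4 rose from 8.095, 6.92 and 7.36 CPM to 136, 119 and 101 CPM (log2 fold change 3.96, standard error 0.0995). Of the semaphorins and their plexin receptors, SEMA3A (-5.21), SEMA4B (-2.42) and PLXNB1 (-2.31) fell, but SEMA6B rose from 0.374, 0.322 and 0.109 CPM to 24.4, 23.1 and 22.8 CPM (log2 fold change 6.40, standard error 0.201, adjusted p = 1.34e-15, quasi-likelihood test of edgeR) and PLXNA1 rose (1.66). Ephrin receptors EPHB6 (-6.66) and EPHB2 (-3.21) fell, EPHA7 rose (1.75) and EPHA2 was not called (-0.27). Genes of neuronal adhesion and synapses gave 4 upregulated (9.76%) and 1 downregulated (2.44%) of 41 tested, and their median was 0.01. CNTNAP1 (2.20) and NLGN1 (1.80) rose, but the upregulated share was close to the 9.57% of all genes tested. Without replicate 2 of S2-007 or replicate 1 of S2-020, 2 neuronal genes were downregulated.

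Of 35 tested HOX genes, 10 were downregulated and 3 upregulated, with a median log2 fold change of -0.12. HOXA13, a HOX gene of the hindgut, fell from 65.1, 68.7 and 57.03 CPM to 10.1, 10.2 and 8.99 CPM (log2 fold change -2.73, standard error 0.0864), and HOXB6 (-0.96) and HOXA10 (-0.99) fell. The upregulated HOXA2, HOXC10 and HOXC13 were each at 1.97 mean CPM in S2-020 or lower, and without replicate 1 of S2-007 the downregulated HOX genes numbered 6. Of 14 tested cancer-testis antigens, TEX15 was upregulated (1.40) and 2 were downregulated, among them PRAME (-1.88). These shares, 7.14% and 14.3%, were near the 9.57% and 12.1% of all genes tested. Without replicate 2 of S2-020, 2 were upregulated, and without replicate 2 or 3 of S2-007 or replicate 1 of S2-020, 1 was downregulated.

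Some genes of DNA replication and mitosis were higher in S2-020. Of 47, 13 were upregulated (27.7%) and 0 downregulated by edgeR's quasi-likelihood test, with a median log2 fold change of 0.35. DESeq2 also called 0 lower, and 5 members were lower at an unadjusted p under 0.05. PTTG1, or securin, rose from 63.2, 59.9 and 64.4 CPM to 131, 131 and 128 CPM (log2 fold change 1.03, standard error 0.0536), the licensing factor CDT1 rose (0.99) and thymidylate synthase TYMS rose (0.92). MKI67 (-0.06), TOP2A (0.03) and PCNA (0.26) were not called. In hypoxia and glycolysis, 11 of 36 tested genes were upregulated and 4 downregulated, with a median of 0.26. SLC2A3, the glucose transporter GLUT3, rose from 0.227, 0.309 and 0.407 CPM to 61.7, 48.2 and 36.03 CPM (log2 fold change 7.24, standard error 0.215, adjusted p = 6.01e-16, quasi-likelihood test of edgeR), with 27.8% of its sequence shared with other genes, and SLC2A1, or GLUT1, was not called (-0.12). The hypoxia-responsive ADM (3.73) and EGLN3 (2.14) rose, and CA12 fell (-1.38).

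Of 33 genes of cholesterol and fatty acid synthesis, 6 were upregulated and 5 downregulated, with a median log2 fold change of 0.01. HMGCS1, an early enzyme of cholesterol synthesis, was not called (-0.11). Of 35 genes of the NRF2 response and drug metabolism, 17 were downregulated and 10 upregulated, with a median of -0.44. GPX2, a glutathione peroxidase of the gut, was at 141, 155 and 129.7 CPM in S2-007 and 0.139, 0.1202 and 0.209 CPM in S2-020 (log2 fold change -9.86, standard error 0.132, adjusted p = 6.50e-21, quasi-likelihood test of edgeR). The aldo-keto reductases divided, with AKR1B10 lower (-7.46) and AKR1C1 (2.83) and AKR1C2 (1.87) higher. These 3 share 31.5%, 31.8% and 45.5% of their sequence with other genes. NQO1 was not called (0.46), and HMOX1 rose (2.15).

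Outside the lists, the largest rises among well expressed genes brought several genes from near the floor. CAVIN2, a coat protein of caveolae, was at 0.361, 0.5104 and 0.516 CPM in S2-007 and at 294, 254 and 230.1 CPM in S2-020 (log2 fold change 9.10, standard error 0.124, adjusted p = 7.63e-21, quasi-likelihood test of edgeR). WFDC1 was at 0.0534, 0 and 0.0272 CPM in S2-007 and at 19.9, 18.1 and 19.1 CPM in S2-020, a fold that rests on few S2-007 counts (log2 fold change 9.35, standard error 0.259). GJA1, the gap junction protein connexin 43, went from 0.107, 0.269 and 0 CPM to 31.5, 34.3 and 27.6 CPM (log2 fold change 7.90, standard error 0.272). The cystatin CST1 (8.55), the growth cone protein BASP1 (8.12) and OLR1, a receptor for oxidized LDL (7.54), rose as well, and 36.1% of the sequence of CST1 is shared. S2-028 was high too for CST1 (178 mean CPM) but not for BASP1 (0.143) or OLR1 (0.401). Without replicate 1 of S2-007 the log2 fold change of WFDC1 was 10.28, without replicate 2 that of GJA1 was 9.12, and without replicate 3 that of BASP1 was 8.72. DPYSL3, which acts on the cytoskeleton of growing neurites, rose from a low to a high level, at 10.5, 11.6 and 12.2 CPM in S2-007, 1560, 1606 and 1491 CPM in S2-020 and 5.51, 3.91 and 5.61 CPM in S2-028 (log2 fold change 7.05, standard error 0.0657, adjusted p = 5.93e-23, quasi-likelihood test of edgeR). IGF2, a fetal growth factor, was at 1014, 1079 and 1137 CPM in S2-007 and 4898, 5290 and 5168 CPM in S2-020 (log2 fold change 2.22, standard error 0.0437), and CTSD, or cathepsin D, at 239.6, 241 and 241 CPM and 1933, 1859 and 1744 CPM (log2 fold change 2.91, standard error 0.0494). IGF2 and CTSD share 41.2% and 24.6% of their sequence with other genes.

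The largest falls outside the lists were those of UCA1, a long non-coding RNA (-9.50), the sulfotransferase CHST4 (-8.97), P-selectin SELP (-8.84), the apical trafficking protein MAL2 (-8.43), the retinol dehydrogenase DHRS9 (-8.41) and the protocadherin PCDH1. Several rest on few S2-020 counts. Without replicate 3 of S2-020 the log2 fold changes of CHST4 and SELP were -10.62 and -9.55, and without replicate 2 those of DHRS9 and MAL2 were -9.93 and -9.04. Mean levels in S2-028 were 2.26 CPM for CHST4, 0.107 for DHRS9, 351 for UCA1, 92.0 for SELP and 298 for MAL2. PCDH1 was at 421, 411 and 401 CPM in S2-007, at 1.68, 1.54 and 1.48 CPM in S2-020 and at 228, 184 and 206 CPM in S2-028 (log2 fold change -8.07, standard error 0.0771, adjusted p = 5.93e-23, quasi-likelihood test of edgeR). Among abundant transcripts, that of filamin FLNA, which cross-links actin, rose from 1509.9 ± 245 to 3673 ± 193 CPM (mean ± SD, n = 3, log2 fold change 1.25).

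**Figure D4:**
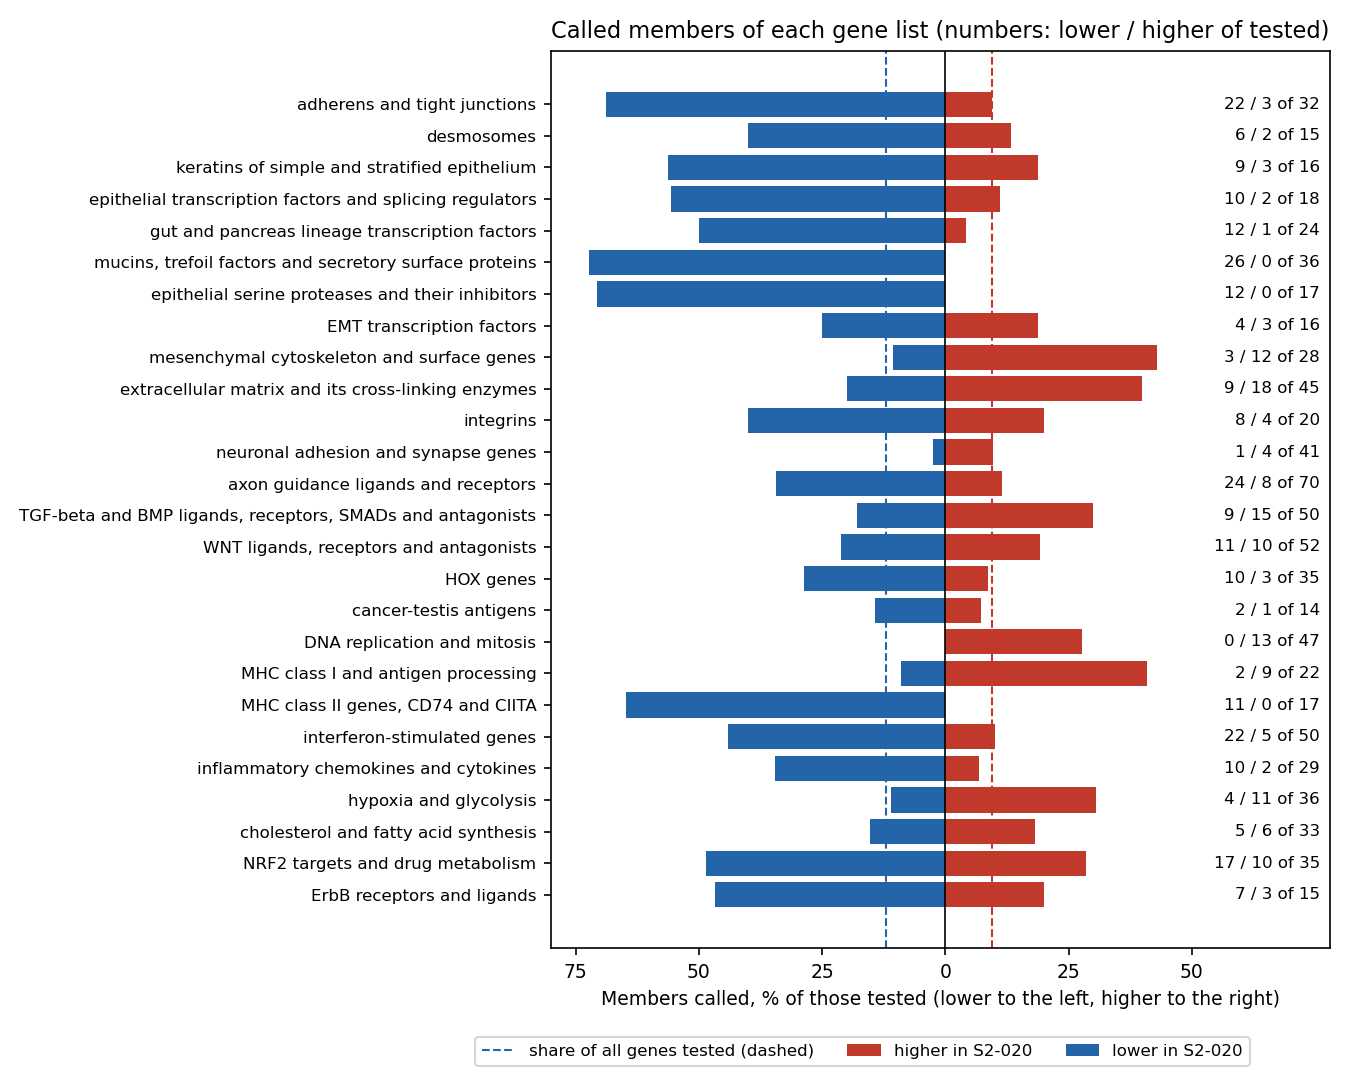
Share of the tested members of 26 gene lists called lower (blue, to the left) or higher (red, to the right) in S2-020, in percent, with the counts at the right edge and dashed lines at the shares of all genes tested (12.1% lower and 9.57% higher). The junction, mucin, serine protease and MHC class II lists reach furthest to the left, and the mesenchymal, matrix and MHC class I lists furthest to the right.

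Markers of other cell types summed to at most 13.9 CPM in a sample, other than those of leukocytes. Of 10 fibroblast markers 7 were tested, and their summed level was 3.70 to 4.17 CPM in S2-020 and 3.91 to 7.24 CPM in S2-007, with COL1A1 the only one called. Of 7 tested endothelial markers 0 were called by edgeR's quasi-likelihood test and 1 was higher at an unadjusted p under 0.05, at a summed 11.7 to 13.9 CPM in S2-020 and 9.51 to 11.7 CPM in S2-007. Of 8 tested leukocyte markers, 3 fell and 1 rose, and their summed level was 13.2 to 15.3 CPM in S2-020 and 340 to 412 CPM in S2-007. LYZ, at 332 and 2.57 mean CPM in S2-007 and S2-020, and CD68, at 41.05 and 7.83, made up most of that sum and fell, as did CD14. PTPRC, which defines leukocytes, was at 0.307, 0.255 and 0.339 CPM in S2-007 and 0.0835, 0.168 and 0.307 CPM in S2-020. Without LYZ and CD68, a choice made after their values were seen, the leukocyte sum was 3.15 to 4.68 CPM in S2-020 and 2.44 to 3.79 CPM in S2-007. Red blood cell markers summed to at most 1.83 CPM. Of the acinar and islet markers 3 of 10 were tested, and CELA3A (1.12) and CTRB1 (4.99) were called higher at 0.868 and 0.344 mean CPM in S2-020. The part of other cell types in the results was not tested.

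Called genes were not spread evenly over the chromosomes. Upregulated genes made up 17.6% of the genes tested on chromosome 19 and 14.8% on chromosome 12, against 5.24% on chromosome 7. Downregulated genes made up 21.8% on chromosome 21 and 7.41% on chromosome X. Runs of neighbours were formed from protein-coding genes only, without those of low mean level. In 12287 overlapping runs of 50 such genes, the 2.5 and 97.5 percentiles of the median log2 fold change were -0.41 and 0.50. The highest run, chr12:56128267-57802856 from ESYT1 to TSFM, had a median of 1.00, with 39 genes upregulated and 2 downregulated. ERBB3, which fell, lies just before this run, and STAT2, which rose (0.88), lies within it. A further raised run, chr16:84053763-89566829 from MBTPS1 to RPL13, had a median of 0.605 and holds CDT1 (0.99). Whether position bears on the rise of STAT2 or CDT1 was not tested. The lowest run, chr2:223755326-233773300 from AP1S3 to UGT1A1, had a median of -0.60, with 25 genes downregulated, and ends in the UGT1A genes of glucuronidation. The UGT1A genes share their last exons and are not separate measurements. The median and the 25 may therefore count 1 locus several times.

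**Figure D5:**
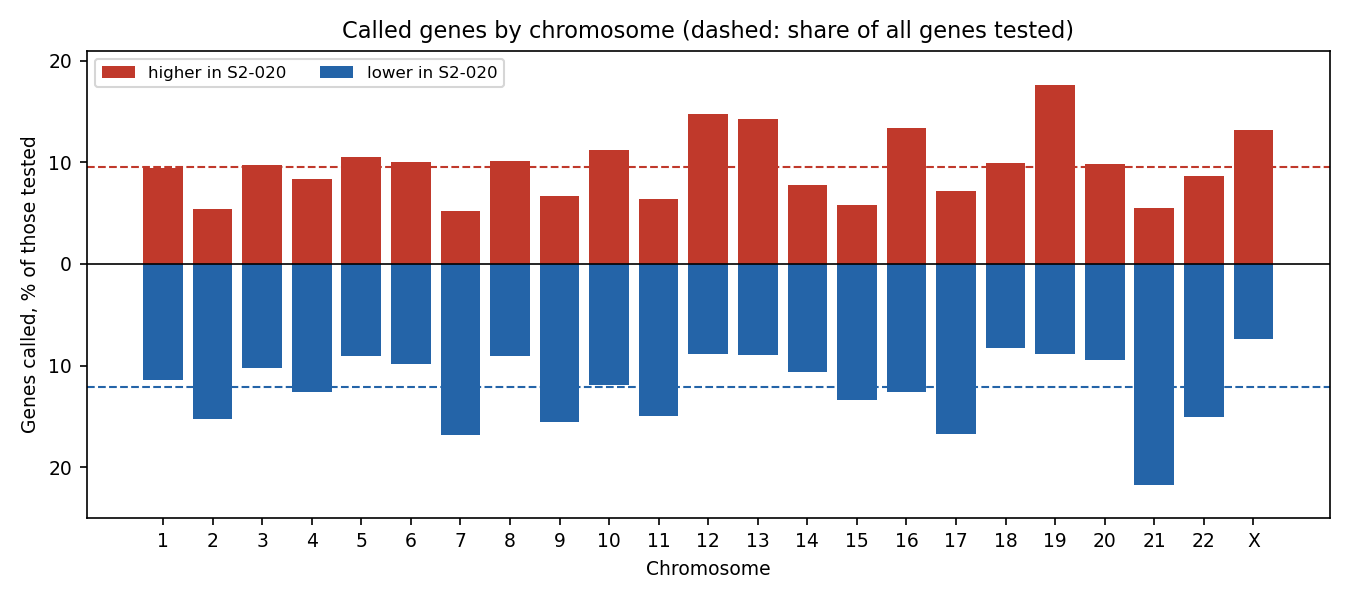
Share of the genes tested on each chromosome that were called higher (red, upward) or lower (blue, downward) in S2-020, in percent, with dashed lines at the shares of all genes tested. Chromosome 19 has the tallest red bar (17.6%) and chromosome 21 the tallest blue bar (21.8%).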

How the data were processed

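Strand-specific mRNA libraries of 3 sublines, S2-007, S2-020 and S2-028, were sequenced, with 3 samples for each, and each sample was placed by its own label. The authors trimmed reads with Trimmomatic 0.39, aligned them with BWA 0.7.17 to GRCh38.p14, used SAMtools 1.12, and deposited raw counts of mapped reads per gene for 42717 genes. The submitters' notes also name edgeR 3.16.5. How reads on several genes were counted is not given in the sources used here. BWA is not a spliced aligner, and reads that span exon junctions may be missing from the counts. The table holds 2 lines without a gene, a sum and a ratio, which stayed out, and 18 columns of signal normalized by the authors, which were not used. Of the genes, 42539 (99.6%) were matched to RefSeq by identifier, and their positions were taken from it.

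Counts were filtered with filterByExpr (minimum count 10, minimum total 15), normalized by TMM and compared in R 4.3.3 by the quasi-likelihood F-test of edgeR 4.0.16 (glmQLFit and glmQLFTest, default options), with the 6 samples of S2-020 and S2-007 in the fit. The study names a likelihood ratio test, which was an alternative here, as were DESeq2 1.42.0, RLE normalization, other filters, all 9 samples in the fit, a replicate block and leaving out each sample. The biological coefficient of variation was 0.151. Printed CPM use TMM factors of all 9 samples and no added count. Fold changes are those of the fit, which by default adds a small prior count. A ratio of printed CPM can therefore differ slightly from a fold change, and by more where counts are few. The prior count of 2 was used only for log2 CPM. Standard errors were derived from the fold change and the F statistic. A count of 3 per library (0.0361 to 0.0418 CPM in S2-020) was taken as the floor, and 41 downregulated genes had all S2-020 samples at or under it. Such floors cover counting error only.

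The procedure was tested on simulated data. For S2-020 against S2-007, with 25768 genes in the fit and 200 changed, it recovered 199 (99.5%) with 5 false calls. Far fewer genes were changed there than the 5769 called in the data. Recovery of small changes, or of weakly expressed genes, was not measured separately. These values are therefore a check that the procedure runs correctly, and not the power or error rate of the reported calls. Sharing of sequence was computed from GENCODE transcripts in words of 31 bases. Besides the genes for which it is printed, AXIN2, CD68, CELA3A, CTRB1, HLA-B, KRT14, KRT17 and TGFB2 share over 20% with other genes, so their counts are less certain. Values of a few list members are not reported here, though the list counts include them.

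The gene lists, and the samples compared, were chosen with earlier results of these data known. Named genes were SERPINB5, CDH1, EPCAM, KRT8, KRT18, KRT19, VIM, CDH2 and ZEB1, the 12 largest fold changes in each direction among separated DEGs whose mean log2 CPM was 3 or more, the 8 largest differences of CPM in each direction, up to 3 called genes per list and direction with the smallest adjusted p, and markers of other cell types over 1 CPM. Further list members in the text, the genes whose promoters are shown and the families of the closing section were chosen after their values were seen. Lists were described by counts and medians, without a test of the list.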

Additional observations from a re-analysis of the deposited data

How the results depend on the processing

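The 2552 upregulated and 3217 downregulated genes became 2652 and 3416 with the likelihood ratio test, 2744 and 3055 with DESeq2, 2752 and 3062 with RLE normalization, 2610 and 3344 without a filter, 1925 and 2187 among the 14183 genes whose mean log2 CPM was 1 or more, and 2729 and 3044 with all 9 samples in the fit. With single samples left out, they lay between 2439 and 2765 and between 2911 and 3206. No scaling moved the median of all fold changes by more than 0.031. Deviations of same-numbered samples were barely correlated (r of -0.00995, 0.0438 and 0.00242 across genes), as were those of differently numbered ones (-0.0358 to 0.0306). The labels do not say whether same-numbered samples were handled together, which these values cannot show. A replicate block gave 2527 and 3123, with 5563 calls shared with the fit without it.

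Of 2246 fold changes of the 174 named genes under these settings, 2229 kept their direction and their call, 16 lost the call, 1 gained it and 0 changed direction. The lost calls were those of COL1A1, HMGA2, PDGFRA, PIWIL1 and SNAI1. Of 806 list, family and total counts, 781 stayed within 1.5 times the reported one, and the cause of the other moves was not tested, other than that the stricter filter tests fewer genes. That filter left 4 of 9 downregulated keratins, 1 of 3 downregulated mesenchymal genes, 5 of 8 integrins, 0 of 3 upregulated and 6 of 10 downregulated HOX genes, 1 of 2 downregulated cancer-testis antigens, and 1 of 2 upregulated and 5 of 10 downregulated chemokines and cytokines. Upregulated gut and pancreas factors were 2 in place of 1 with DESeq2, RLE normalization and all 9 samples, and 1 to 2 with samples left out. Downregulated neuronal genes were 2 in place of 1 with the likelihood ratio test and without a filter, and 1 to 2 with samples left out. Upregulated cancer-testis antigens were 2 with the likelihood ratio test and 3 without a filter, and 1 to 2 with samples left out, as were the downregulated ones. With samples left out, downregulated HOX genes were 6 to 10 and upregulated MHC class II genes 0 to 1. At this depth a gene with fewer than about 3 counts in a library cannot be told from absent.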

Other observations

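Further families were described after their values were seen. The metallothioneins, which bind zinc and copper, were higher in S2-020. Of 12 listed, 7 were tested and all 7 of these were upregulated, with log2 fold changes of 2.83 to 8.52. MT2A was at 25.3, 24.9 and 28.8 CPM in S2-007, at 653, 674 and 742 CPM in S2-020 and at 473, 447 and 532 CPM in S2-028 (log2 fold change 4.68, standard error 0.0683, adjusted p = 2.21e-20, quasi-likelihood test of edgeR). MT1E rose from 11.7 ± 1.79 to 135 ± 4.29 CPM (mean ± SD, n = 3, log2 fold change 3.49). These genes resemble each other, with 12.7% of the sequence of MT2A, 15.6% of that of MT1E and all of that of MT1L shared with other genes in words of 31 bases, so the share of each member is uncertain. The suppressors of cytokine signalling, which dampen JAK and STAT signals, gave 5 upregulated of 8 tested and 3 not called. SOCS2 was at 2.204, 2.52 and 3.06 CPM in S2-007 and at 16.6, 13.6 and 16.9 CPM in S2-020 (log2 fold change 2.56, standard error 0.1403), and SOCS1 (3.19), SOCS3 (1.48), SOCS5 (1.47) and CISH (0.90) rose.

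Annexins, which bind membrane lipids in the presence of calcium, were split, with 4 of 12 upregulated and 6 downregulated. ANXA10, an annexin of the stomach, was at 30.1, 36.02 and 26.1 CPM in S2-007 and 0, 0.0601 and 0 CPM in S2-020 (log2 fold change -10.37, standard error 0.288, adjusted p = 2.15e-16, quasi-likelihood test of edgeR). This fold rests on few S2-020 counts, all of them in replicate 2. Without that replicate the log2 fold change of -14.15 was set by the small constant that the fit adds to counts. ANXA10 was near the floor in S2-028 too, at 0.0756 mean CPM. ANXA3 (-5.49) and ANXA13 (-5.15) fell, while ANXA6 rose from 11.3 ± 0.896 to 109.8 ± 1.72 CPM (mean ± SD, n = 3, log2 fold change 3.25) and ANXA8 rose (2.49), with 79.2% of its sequence shared with other genes. The 9 UGT1A genes, which add glucuronic acid to bilirubin and drugs, were all downregulated, with log2 fold changes of -4.96 to -2.88. They share their last exons, so their counts are not separate measurements, and they form the end of the run of lowered genes on chromosome 2. The counts called in these 4 families stayed within 1.5 times the reported ones under every setting tried.

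Of 8620 long non-coding RNAs tested, 3.82% were upregulated and 7.88% downregulated, against 12.8% and 14.4% of 16822 protein-coding genes.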
